A study of Mus musculus with 2 samples.

Results

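Genes of the choroid plexus, the secretory epithelium that lines parts of the brain ventricles, were followed in total RNA from embryonic mouse forebrain. The set held 10 genes chosen by name (Ttr, Folr1, Kl, Clic6, Otx2, Aqp1, Enpp2, Sostdc1, Lmx1a and Slc4a5) out of 43346 listed genes, and each symbol matched 1 Ensembl identifier in both libraries. The 2 libraries, replicate 2 and replicate 1, are biological replicates of 1 group, healthy B6NCrl embryos at 16.5 days of gestation with male and female tissue pooled. Replicate 2 came from the forebrains of 41 embryos, and for replicate 1 the labels say only that forebrains were pooled. The input was 10 ng of RNA over 200 nt in size, with ERCC spike-ins added. There is no second tissue, age or treatment, so levels are described and the pools are set side by side without a test.

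The choroid plexus is a folded, vascularised epithelium that grows from the dorsal midline of the brain next to the cortical hem. It makes much of the cerebrospinal fluid by moving ions and water from blood to ventricle, and it secretes carrier proteins and signalling molecules into that fluid. The members cover its secreted products (Ttr, Enpp2, Sostdc1 and the shed receptor Kl), its membrane transport proteins (Folr1, Aqp1, Clic6 and Slc4a5) and the transcription factors of its origin (Otx2 and Lmx1a). In bulk tissue, fewer choroid plexus cells and less RNA per cell cannot be told apart.

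Genes received 26957198 expected counts in replicate 2, against 31211128 in replicate 1. All 7 forebrain identity genes, among them Emx1 and Lhx2, exceeded 10 TPM in both libraries, while none of 7 genes of caudal identity reached 1 TPM in both. The Hox genes Hoxa2, Hoxb2 and Hoxb4 had 0 counts in both, and for Hoxa2 a count of 0 allows up to 0.120 TPM in replicate 2, against 0.101 TPM in replicate 1. Spike-ins took 4.10% of TPM in replicate 2 and 5.93% in replicate 1.

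Ttr far exceeded every other member, and the rest ran from a mean of 27.9 TPM for Enpp2 to 0.30 TPM for Kl. TPM, a transcript abundance scaled by length, lets levels be ordered between genes. A level of 1 TPM in both libraries was reached by 8 of 10 members, against 34.1% of all listed genes and 60.7% of protein-coding genes. Only Ttr, Enpp2 and Folr1 exceeded 10 TPM in both. The median over the members was 7.01 TPM, beside 5.05 TPM over 21474 protein-coding genes. Neighbours in the order had ranges over the 2 libraries that did not overlap, except Otx2 with Sostdc1 and Sostdc1 with Aqp1. Counting intervals of Slc4a5 and Kl overlapped.

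Gene positions are those of GENCODE M21 on GRCm38. Among the secreted products, Ttr encodes transthyretin, the carrier of thyroid hormone and of retinol-binding protein in the cerebrospinal fluid (chromosome 18, 20665280 to 20674321). It was at 370 TPM in replicate 2, against 421 TPM in replicate 1, from 6533 and 8849 expected counts. Its mean of 396 ± 36.0 TPM (SD, n = 2) ranked at 289 among protein-coding genes. It made up 83.3% of the members' summed TPM in replicate 2 and 86.6% in replicate 1. Enpp2, next in order, made up 7.20% and 4.90%.

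Enpp2, which encodes autotaxin, the secreted enzyme that makes lysophosphatidic acid (chromosome 15, 54838901 to 54952892), was at 32 TPM in replicate 2, against 23.8 TPM in replicate 1. It was the second most abundant member, with a mean of 27.9 ± 5.77 TPM (SD, n = 2). Sostdc1, a secreted antagonist of BMP and Wnt signals (chromosome 12, 36314139 to 36318452), was at 6.91 TPM in replicate 2, against 8.13 TPM in replicate 1. Kl encodes klotho, the co-receptor for the hormone FGF23, whose outer part is shed into the fluid (chromosome 5, 150952607 to 150993817). It was the lowest member, at 0.39 TPM in replicate 2, against 0.21 TPM in replicate 1. These values rest on 31 and 20 counts, with 95% exact Poisson intervals of 0.265 to 0.554 TPM and 0.128 to 0.324 TPM. Intervals of this kind cover counting error only.

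Among the transport proteins, Folr1 was the most abundant. It encodes folate receptor alpha, which carries folate across the epithelium (chromosome 7, 101858331 to 101870788), and was at 14.3 TPM in replicate 2, against 16.0 TPM in replicate 1. Aqp1, a water channel (chromosome 6, 55336432 to 55348555), was at 7.66 TPM in replicate 2, against 5.35 TPM in replicate 1. Clic6, of the chloride intracellular channel family (chromosome 16, 92485736 to 92541243), was at 2.90 TPM in replicate 2, against 2.78 TPM in replicate 1. Slc4a5, a sodium bicarbonate cotransporter (chromosome 6, 83219828 to 83304945), was at 0.65 TPM in replicate 2, against 0.43 TPM in replicate 1, from 38 and 36 counts. Posterior mean estimates, also deposited by the authors, put its mean at 1.1 TPM in place of 0.54 TPM. Of these 4, only Slc4a5 was under 1 TPM in both pools.

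Of the transcription factors, Otx2 was the higher. This homeobox gene, needed in the mouse for the choroid plexus to form (chromosome 14, 48657677 to 48673819), was at 8.20 TPM in replicate 2, against 7.27 TPM in replicate 1. Lmx1a, a LIM-homeobox gene of the roof plate and hem (chromosome 1, 167689237 to 167848741), was at 1.29 TPM in replicate 2, against 1.28 TPM in replicate 1. Of their relatives, Otx1 was at 7.92 and 7.91 TPM in replicates 2 and 1, next to Otx2, whereas Crx was at 0.07 and 0.02 TPM. Lmx1b had 2 counts in replicate 2 and 0 in replicate 1.

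**Figure D1:**
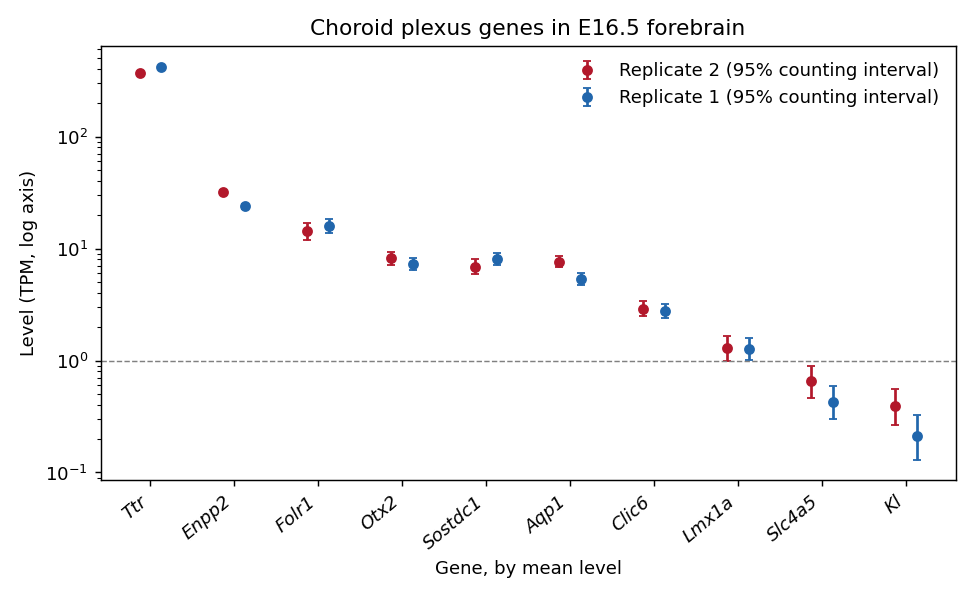
TPM (log axis) of each choroid plexus gene in replicate 2 (red, left) and replicate 1 (blue, right), ordered by mean. Bars are 95% exact Poisson counting intervals and the dashed line marks 1 TPM. Ttr stands at 370 and 421 TPM, well above Enpp2 at 32 and 23.8 TPM, and Slc4a5 and Kl lie under the line.

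By the split of reads that the authors deposited, Otx2 was divided mainly between transcripts with different annotated starts. The starts themselves were not measured. Otx2-201, whose annotated start lies at 48665106, held 47.5% of Otx2 in replicate 2 and 48.2% in replicate 1. Otx2-202, which starts further upstream at 48667513, held 36.0% in replicate 2 and 40.1% in replicate 1. Summed over transcripts, those starting near the first site held 50.4 ± 3.16% (SD, n = 2), and those near the upstream site 46.1 ± 7.99%. The order of these summed shares differed between the pools, with the upstream group at 40.5% in replicate 2 and 51.8% in replicate 1.

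The windows before both starts are shown because the Otx2 transcripts divide between them. Each runs from 250 bases before to 50 after the start that RefSeq gives (GRCm38.p6, the assembly of mm10), on the minus strand at chr14:48665060-48665359 for Otx2-201 and at chr14:48667459-48667758 for Otx2-202. Capitals mark TAATCC, the core of bicoid-class homeodomain sites, the class to which OTX2 belongs, and TAATTA, a core of LIM-homeodomain sites, on either strand. On the other strand TAATCC reads GGATTA.
Otx2-201 window: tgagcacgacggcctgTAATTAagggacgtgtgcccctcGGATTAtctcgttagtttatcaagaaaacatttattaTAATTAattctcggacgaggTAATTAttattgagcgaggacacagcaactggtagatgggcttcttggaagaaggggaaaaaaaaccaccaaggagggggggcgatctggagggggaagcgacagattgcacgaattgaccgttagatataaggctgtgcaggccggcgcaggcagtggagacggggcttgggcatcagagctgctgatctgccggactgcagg
Otx2-202 window: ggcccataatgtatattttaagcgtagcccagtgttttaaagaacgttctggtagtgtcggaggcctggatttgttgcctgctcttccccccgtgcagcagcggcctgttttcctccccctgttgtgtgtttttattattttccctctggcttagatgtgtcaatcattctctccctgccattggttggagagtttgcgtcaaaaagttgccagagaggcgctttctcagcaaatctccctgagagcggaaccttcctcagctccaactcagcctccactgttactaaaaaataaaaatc
The Otx2-201 window held 1 TAATCC, its first letter 211 bases before the start, and 3 TAATTA, at 234, 174 and 154 bases before it. The Otx2-202 window held neither. RefSeq windows matched 5 of the 10 members (Lmx1a, Kl, Aqp1, Slc4a5 and Otx2), with 8 windows in all, 4 of them of Otx2. TAATCC was in 1 and TAATTA in 2 of these 8 windows, all of Otx2, beside 7.06% and 5.29% of 32851 windows of the same length. The second TAATTA window belongs to Otx2-208, a transcript at 0% of Otx2 in replicate 2 and 9.08% in replicate 1. That window, at chr14:48667595-48667894, overlaps the Otx2-202 window. Its TAATTA, 141 bases before the start at 48667644, lies just upstream of the edge of the Otx2-202 window. The absence of both motifs from the Otx2-202 window thus depends on where the window was cut. The windows of Kl, Aqp1, Slc4a5 and Lmx1a held 67.3%, 62.7%, 62.7% and 59.3% G and C, and those of Otx2 between 41.7% and 53.7%, beside a median of 52.7% over all windows. A match is a description of letters and shows no binding.

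The remaining members differed in how firmly their transcripts could be divided. Ttr, Aqp1, Sostdc1 and Kl each had 1 listed transcript, and Clic6 had all of its counts on 1 of 2. Enpp2 was led by Enpp2-201 at 83.7% in replicate 2 and 83.2% in replicate 1, with Enpp2-204 at 10.5% and 8.43%. Lmx1a was led by Lmx1a-201, at 72.3% in replicate 2 and 77.1% in replicate 1. Its other transcript, Lmx1a-202, held 27.8% and 22.9% and starts at 167689237, upstream of Lmx1a-201 at 167689557. Lmx1a-202 rests on about 17 counts in each library, and with posterior means Lmx1a-201 held 61.3% in replicate 2 and 61.4% in replicate 1.

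The transcript shares of Folr1 and Slc4a5 differed between the pools. Of 17 listed Folr1 transcripts, 8 had counts. Folr1-201 held 43.1% in replicate 2 and 52.2% in replicate 1, Folr1-213 36.6% and 15.0%, and Folr1-206 0% and 28.1%. The gene Anapc15, on the opposite strand, overlaps 7074 bases of Folr1, and 7 Folr1 transcripts lie wholly within its span. Those 7 took 17.8% of Folr1 counts in replicate 2 and 18.1% in replicate 1, but 42.1% and 43.1% of its TPM, because they are short. Anapc15 was at 60.6 TPM in replicate 2, against 63.6 TPM in replicate 1. The exons of both genes share 0 bases in GENCODE M21, and whether the counting used strand is not given in the sources used here. With all Folr1 counts set on the length of Folr1-201, its level would be 9.73 TPM in replicate 2, against 10.8 TPM in replicate 1. Slc4a5-201 held 71.9% in replicate 2 and 87.4% in replicate 1, Slc4a5-206 28.1% and 0%, and Slc4a5-205 0% and 12.6%. These shares rest on fewer than 40 counts in each library, and with posterior means Slc4a5-201 held 18.8% in replicate 2 and 31.0% in replicate 1. In replicate 2 Slc4a5-206, at 24.8%, was then above it.

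**Figure D2:**
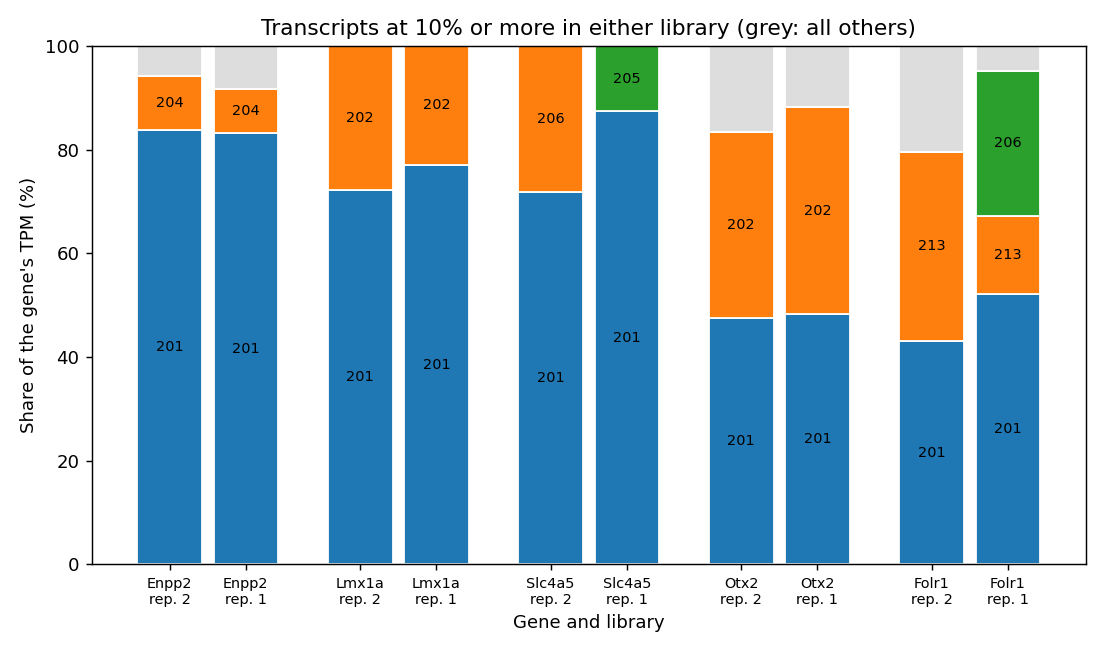
Share of each gene's TPM (percent) by transcript, for the 5 members with more than 1 transcript carrying counts, with replicate 2 left of replicate 1. Numbers in the bars are transcript suffixes and grey is the sum of other transcripts. Enpp2-201 takes 83.7% and 83.2%, Otx2-201 and Otx2-202 share most of Otx2, and Folr1-206 appears in replicate 1 alone.

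Other annotated neighbours of the members, where they had values, were nearly silent. Gm49154, which overlaps 1726 bases of Otx2 on the same strand, had no value in either library. Otx2os1, a long noncoding gene that overlaps Otx2 on the opposite strand, was at 0.39 TPM in replicate 2, against 0.38 TPM in replicate 1. Gm16090, whose start lies 20 bases from that of Ttr on the opposite strand, had 0 and 3 counts. Gm26684, antisense at the start of Enpp2, had 0 counts in both, and 2410124H12Rik, which overlaps Clic6, had 7 in each.

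Between the pools, none of the 8 members compared was called 2-fold apart under trimmed-mean scaling, although the ratio of Ttr lay apart from those of Aqp1 and Enpp2. Ratios are log2 of replicate 2 over replicate 1, from counts scaled by trimmed means, with 95% exact Clopper-Pearson counting intervals. They compare these libraries, with no replicate check. With a mean of 50 counts or more, 8 members could be compared, and 0 of them were called at least 2-fold apart, beside 1.37% of 13929 genes (0.366% higher in replicate 2 and 1.01% lower). At an interval that left out equality, with no minimum fold, 3 of 8 were counted, beside 50.5% of genes. Of these, Aqp1 and Enpp2 were higher in replicate 2 (26.5% of genes) and Ttr was lower (24.1% of genes). These shares of all genes are large, so an interval that leaves out equality is no mark of these members.

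Aqp1, with 305 counts in replicate 2 and 254 in replicate 1, had a log2 ratio of 0.50 (0.25 to 0.74). Enpp2, with 1499 and 1341 counts, had 0.40 (0.29 to 0.50). Ttr had -0.20 (-0.25 to -0.16), so its interval overlapped neither. Otx2 had 0.14 (-0.13 to 0.40), Clic6 0.04 (-0.27 to 0.35), Lmx1a -0.01 (-0.51 to 0.49), Folr1 -0.16 (-0.50 to 0.17) and Sostdc1 -0.25 (-0.53 to 0.03). The intervals of these 5 held equality. Kl and Slc4a5 were under the count minimum. Kl had 0.85 (0.01 to 1.76) and Slc4a5 0.31 (-0.38 to 1.01), intervals that reach past 2-fold.

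Over the 8 members the median log2 ratio was 0.02, beside 0.01 over all genes compared, with 4 members higher and 4 lower in replicate 2. Summed counts gave -0.08 (-0.12 to -0.04), which is mainly Ttr. Without Ttr the sum of the other 9 gave 0.27 (0.19 to 0.34), opposite in sign. That sum is mainly Enpp2, with 1499 of 2646 counts in replicate 2 and 1341 of 2590 in replicate 1. The median over the 7 compared without Ttr was 0.04, with 4 higher and 3 lower in replicate 2. Ttr was 11.6 times the level of Enpp2 in replicate 2 and 17.7 times in replicate 1, and 48.3 and 78.7 times that of Aqp1, while over Folr1 it was 25.9 and 26.3 times. These directions are those of trimmed-mean scaling. ERCC spike-in scaling moves the median of all genes to 0.56, and 8 of the 8 members are then higher in replicate 2. The 4 that turned were Ttr at 0.35, Sostdc1 at 0.30, Folr1 at 0.39 and Lmx1a at 0.55, and these 4 stayed below that median.

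**Figure D3:**
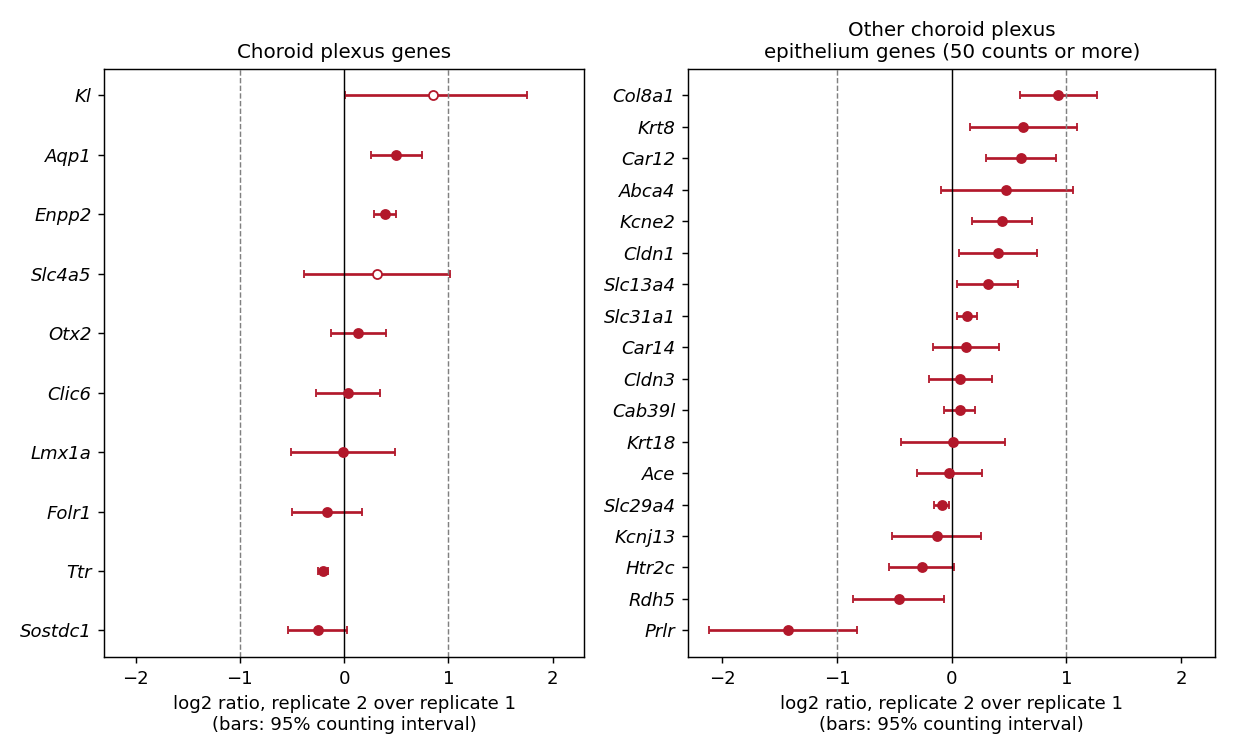
Log2 ratio of replicate 2 over replicate 1 for the choroid plexus genes (left) and for the other choroid plexus epithelium genes with a mean of 50 counts or more (right). Bars are 95% counting intervals, open points are members under the count minimum, and dashed lines mark 2-fold. Aqp1 and Enpp2 lie right of 0 and Ttr left of it under this trimmed-mean scaling (Ttr is right of 0 with spike-in scaling), while Prlr alone passes a 2-fold line with an interval clear of 0.

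A list of 25 other genes known from choroid plexus epithelium was also set out. In both libraries 19 of them reached 1 TPM, and the levels ran from a lowest mean of 0.37 to a highest of 79.4 TPM, with a median of 3.07 TPM. Slc29a4, a monoamine and adenosine transporter, led at 77.5 TPM in replicate 2, against 81.3 TPM in replicate 1. Slc31a1, a copper importer, was at 36.6 and 33 TPM, and Cab39l at 18.6 and 17.6 TPM, but neither is particular to this epithelium. In RNA of whole forebrain the level of Slc29a4 cannot be assigned to this epithelium either. Kcnj13, a potassium channel of its apical membrane, was at 5.42 TPM in replicate 2, against 5.89 TPM in replicate 1, and Kcne2, a potassium channel subunit, at 10.4 and 7.61 TPM. Cldn2, a tight junction protein, was at 1.14 and 0.74 TPM. The lowest was Slco1a5, an organic anion transporter, at 0.36 and 0.37 TPM.

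Of the 18 with enough counts, 12 were higher and 6 lower in replicate 2, with a median log2 ratio of 0.10. Those whose interval left out equality were 7 higher (26.5% of genes) and 3 lower (24.1% of genes). Prlr, the prolactin receptor, was the 1 gene called 2-fold apart, at 0.41 TPM in replicate 2, against 1.1 TPM in replicate 1, and its log2 ratio was -1.43 (-2.12 to -0.82). Of 7 hypothalamic markers, the 6 with enough counts were all lower in replicate 2, with a median of -2.17 and summed TPM of 14.9 and 44.5, and their part in the value of Prlr was not tested. Col8a1, a collagen, was at 2.52 and 1.31 TPM, with 0.93 (0.60 to 1.27).

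Genes that move ions for cerebrospinal fluid production are used by neurons and glia as well, and all 9 exceeded 1 TPM. Atp1b1, a sodium pump subunit, led at 93.1 TPM in replicate 2, against 110 TPM in replicate 1. Car2, a carbonic anhydrase, was at 21.1 and 16.8 TPM, and Slc4a4, a bicarbonate cotransporter, was lowest at 4.03 and 3.13 TPM. Slc12a2, the chloride cotransporter NKCC1, was at 5.0 and 5.14 TPM. The regulator of the pump Fxyd1 was called 2-fold apart, at 10.4 TPM in replicate 2, against 4.88 TPM in replicate 1, a log2 ratio of 1.06 (0.50 to 1.66). The list's median ratio was 0.20, with 5 higher and 4 lower.

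Signals of the hem and roof plate and factors of choroid fate were followed as a list of 17 genes. Of these, 10 reached 1 TPM in both libraries and 10 had enough counts, of which 7 were higher and 3 lower in replicate 2, with a median log2 ratio of 0.30. Over all genes compared, 7252 of 13929 were higher and the median was 0.01. All 7 whose interval left out equality were higher (26.5% of genes). E2f5, a transcription factor used in multiciliated cells, led at 31.3 TPM in replicate 2, against 25.0 TPM in replicate 1. In RNA of whole forebrain the level of E2f5 cannot be assigned to such cells. The Wnt enhancer Rspo3 followed at 20.3 and 16.4 TPM, and the homeobox gene Msx1 at 14.3 and 9.46 TPM. Bmp7 had a ratio of 0.58 (0.37 to 0.79), Msx1 0.57 (0.36 to 0.79) and Rspo2 0.66 (0.40 to 0.93), whereas Bmp4 had -0.25 (-0.70 to 0.19). The hem ligands Wnt3a and Wnt2b were at 0.62 and 0.49 TPM in replicate 2, against 0.30 and 0.48 TPM in replicate 1. The lowest was Gmnc, a regulator of multiciliated cells, with 2 and 5 counts. No gene of this list was called 2-fold apart. Several of these genes are also used by meningeal cells, whose markers were 9 of 9 higher in replicate 2, and the part of those cells was not tested.

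**Figure D4:**
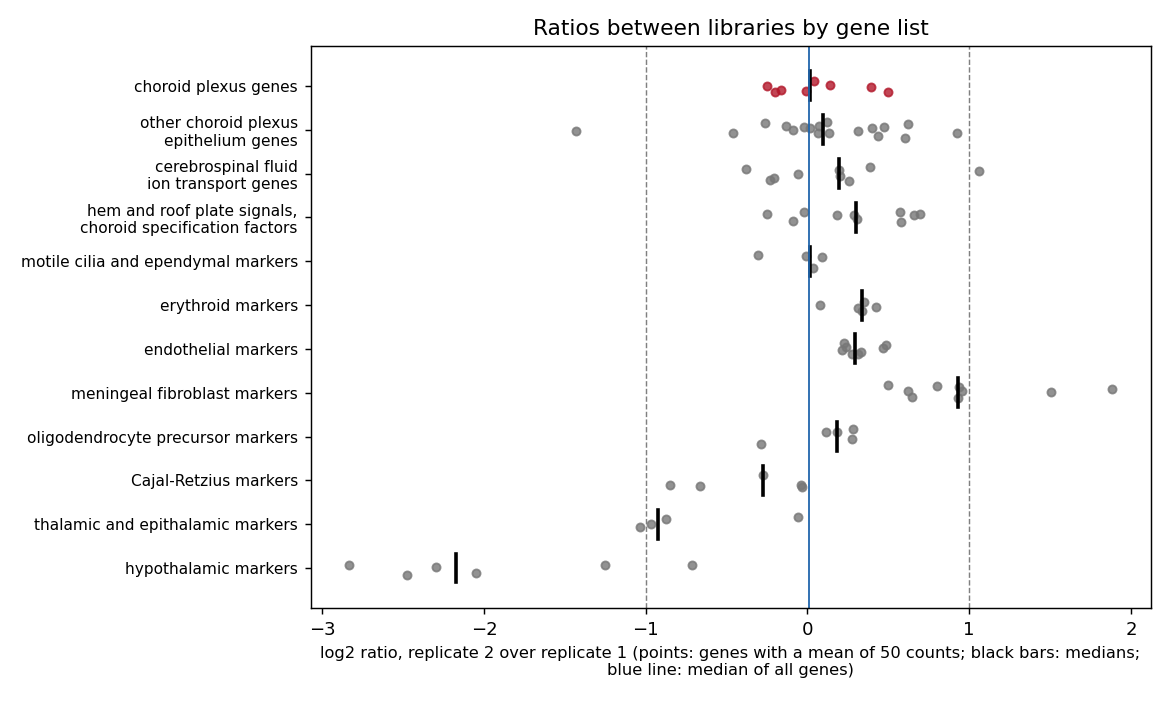
Log2 ratio of replicate 2 over replicate 1 for genes with a mean of 50 counts or more (points), by list, with the list medians as black bars and the median over all genes as a blue line. The choroid plexus genes centre on 0.02, meningeal fibroblast markers on 0.93 and hypothalamic markers on -2.17.

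The partners of single members were mostly present. For Ttr, retinol-binding protein gene Rbp4 was near 1 TPM (1.15 in replicate 2, 0.96 in replicate 1), and the receptor for that protein, Stra6, was at 7.77 and 9.78 TPM. The hormone transporter Slco1c1 was at 22.1 TPM in replicate 2, against 15.8 TPM in replicate 1, and the nuclear receptor Thra led these 9 genes at 154 and 147 TPM. The lowest was the other nuclear receptor, Thrb, at 1.1 and 0.80 TPM. Of 8 compared, 7 were higher in replicate 2, with a median log2 ratio of 0.16.

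For Folr1, the reduced folate carrier Slc19a1 was at 32.8 TPM in replicate 2, against 31.9 TPM in replicate 1 and the proton-coupled carrier Slc46a1 at 15.5 and 16.5 TPM. Fpgs, which retains folate in cells, was at 18.3 and 19.8 TPM. Folr2, the other folate receptor, was the lowest of these 6 at 0.52 and 0.60 TPM, far under Folr1. The list's median ratio was 0.01.

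For Kl, the receptors Fgfr1, Fgfr2 and Fgfr3 lay between 24.5 and 44.3 TPM in both libraries, while Fgf23, its hormone ligand, had 0 counts in replicate 2 and 5 in replicate 1. The related co-receptor Klb had 2 counts in each library. Fgf15 was at 9.46 and 15.4 TPM, and Fgf21 had 0 counts in both. For Enpp2, the lysophosphatidic acid receptor Lpar1 was at 32.6 TPM in replicate 2, against 23.8 TPM in replicate 1, a ratio of 0.47 (0.37 to 0.58). The phosphatases that break down this lipid, Plpp3 and Plpp1, led the list of 9 at 65.1 and 43.7 TPM in replicate 2, against 56.4 and 45.7 TPM in replicate 1. Its lowest member was Lpar3 at 0.29 and 0.24 TPM, and its median ratio was 0.19.

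For Sostdc1, the receptor Lrp6 was at 12.5 TPM in replicate 2, against 9.60 TPM in replicate 1, Lrp4 at 4.97 and 3.71 TPM and Lrp5 at 1.55 and 1.89 TPM, while the relative Sost had 3 and 0 counts. Within their families, Aqp1 and Clic6 ranked differently. Of 10 other aquaporins only Aqp11 reached 1 TPM in both libraries, at 7.89 TPM in replicate 2, against 8.97 TPM in replicate 1, near Aqp1. Aqp4, of astrocyte endfeet, was at 1.43 and 0.86 TPM. Clic6, in contrast, lay far under Clic4 at 106 and 81.4 TPM and Clic1 at 72.8 and 66.3 TPM, and over Clic5 at 0.21 and 0.15 TPM. Slc4a5 was also low for its family. Slc4a3, Slc4a8 and Slc4a7 were at 31.6, 17.5 and 16.4 TPM in replicate 2, against 41.0, 21.2 and 16.0 TPM in replicate 1, while Slc4a9 had 0 and 1 counts and Slc4a11 was at 0.73 and 1.53 TPM.

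Several members are also made outside the choroid plexus, so markers of other sources are given. Red blood cells and endothelium outside the brain use Aqp1, and replicate 2 was the higher for all 5 of 7 erythroid markers with enough counts and for 8 of 8 endothelial markers. Their median log2 ratios were 0.33 and 0.29. The endothelial markers were read in RNA of whole forebrain and do not separate endothelium of the brain from that outside it. Summed TPM was 7520 in replicate 2 and 5980 in replicate 1 for the erythroid list, and 168 and 141 for the endothelial list. Oligodendrocyte precursors express Enpp2 as they mature, and replicate 2 was the higher for 4 of 5 of their markers (median 0.18), from 48.7 summed TPM in replicate 2 and 51.0 in replicate 1. Of those 4, only Pdgfra, at 0.28 (0.15 to 0.41), had an interval that left out equality. Olig1, the most abundant of the 5, was lower in replicate 2, at -0.29 (-0.41 to -0.16). Their summed counts gave 0.04 (-0.04 to 0.11). Meningeal fibroblast markers had a median of 0.93, and summed TPM of 515 and 234. The part of these cells in the ratios of Aqp1 and Enpp2 was not tested.

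Markers of other tissues that use Otx2 or Lmx1a ranged widely in level. Otx2 also marks retinal pigment epithelium, whose visual cycle gene Rpe65 had 0 counts in both libraries and Tyr 0 and 3, although Rlbp1, which glia also use, was at 73.3 and 55.8 TPM, Dct at 4.52 and 3.40 TPM and Best1 at 1.02 and 1.26 TPM. These 8 markers summed to 79.8 TPM in replicate 2 and 61.4 in replicate 1, and most of each sum was Rlbp1. Lmx1a also marks the midbrain floor plate, of which Foxa2 had 3 counts in replicate 2 and 1 in replicate 1, Pitx3 4 and 2, En1 13 and 1, and Th, also made by other neurons, was at 5.45 and 5.36 TPM. The 6 floor plate markers summed to 6.22 TPM in replicate 2 and 5.88 in replicate 1, and most of each sum was Th. Cajal-Retzius markers, of cells that leave the hem, were 5 of 5 lower in replicate 2 (median -0.27, summed TPM 109 and 140). Only 2 of them, Lhx5 at -0.85 (-1.16 to -0.55) and Calb2 at -0.66 (-0.77 to -0.55), had intervals that left out equality. Trp73, at -0.04 (-0.25 to 0.17), Reln, at -0.04 (-0.10 to 0.02), and Lhx1, at -0.27 (-0.62 to 0.06), held equality. Thalamic and epithalamic markers, of a region where Otx2 is also used, were lower for all 4 of 7 with enough counts (median -0.92, summed TPM 45.2 and 82.1), while Otx2 itself had 0.14. The part of these tissues in the values of Otx2 and Lmx1a was not tested.

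Ttr is also a main product of liver and yolk sac. In both libraries the liver genes Alb and Afp were under 0.5 TPM, with 2 and 7 counts in replicate 2 and 15 and 16 in replicate 1, and Serpina1a had 0 counts in both. All 6 liver and gut markers summed to 1.51 TPM in replicate 2 and 2.84 in replicate 1. Most of each sum was Apoa2, with levels of 1.22 and 1.93 TPM (replicates 2 and 1) from 8 and 13 counts. Apoa2 alone of this list reached 1 TPM in both libraries. The part of liver or yolk sac in the value of Ttr was not tested. Motile cilia and ependymal genes were low, with 4 of 8 reaching 1 TPM in both, Mlf1 highest at 12.0 and 11.9 TPM, and Foxj1, the regulator of motile cilia, at 5.93 TPM in replicate 2, against 5.51 TPM in replicate 1. Over the 4 with enough counts their median ratio was 0.02. Like that of the choroid plexus genes, it lay near the 0.01 over all genes compared.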

How the data were processed

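The 2 biological replicate libraries of 1 group were used, 1 table set each. The deposited notes name mm10 and GENCODE M4. Which aligner and quantifier were run is not given in the sources used here. Expected counts were deposited by the authors without normalization, and TPM scaled to one fixed sum over all listed features, spike-ins included, per the file headers. The authors deposited each transcript's percent of its gene as well. GENCODE M21 gave gene types, coordinates (GRCm38, the assembly of mm10) and transcript names, and held a type for 42462 of 43346 identifiers. Gene symbols came from a separate reference list of names by Ensembl identifier. Promoter windows came from RefSeq (GRCm38.p6).

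Expected counts were rounded, scaled by trimmed means (TMM) in edgeR 4.0.16 under R 4.3.3, and compared as log2 ratios (prior count 0.5). A gene was called apart at a mean of 50 counts, 2-fold, and a 95% Clopper-Pearson interval that left out equality. No p-value was computed. The procedure was tested on simulated data with Poisson counting error only, which leaves out any spread between pools beyond counting. A count of 0 was taken to allow up to 3 counts. Python 3.11.15 with numpy 2.4.6, pandas 2.3.3, scipy 1.17.1 and matplotlib 3.10.9 did the rest. The members and the 25 other lists were chosen with earlier results of these data known. Genes named are members, list genes, transcripts at 10% or more, and neighbours within 5000 bases. Alternatives covered the TPM and count minimums, posterior means, other scalings (DESeq2 1.42.0 size factors, library totals, spike-ins, coding genes), the prior count, the promoter window and each replicate left out.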

Additional observations from a re-analysis of the deposited data

How the results depend on the processing

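No paired analysis was possible because there is 1 group. With 1 library on each side, ratios cannot be had without replicate 1 or 2. The 8 members detected at 1 TPM remained 8 at 0.5 TPM, with posterior means and in either library alone, but 3 reached 10 TPM. The median log2 ratio of members, 0.02, was -0.0066 with library totals, 0.14 at a minimum of 200 counts and 0.57 with spike-in scaling. No member was called 2-fold apart under any count minimum or other scaling, except 1, Aqp1 at 1.05, with spike-ins, where Kl, under the minimum of 50 counts, had 1.41. Of all genes 191 were apart, against 1098 with no count minimum, 471 at 20, 38 at 200 and 536 with spike-ins. In the 150 bases nearest the end of each window, 0 windows held TAATCC and 0 held TAATTA. With posterior means the level of Slc4a5 was 1.1 TPM, not 0.54, and the shares of the leading transcript fell to 24.9% for Slc4a5, against 79.6%, and to 32.9% for Folr1, against 47.6%. Leading shares moved for 6 of 10 members in all. The others were Lmx1a at 61.4%, against 74.7%, Otx2 at 41.8%, against 47.8%, Clic6 at 87.5%, against 100%, and Enpp2 at 81.7%, against 83.5%. Depth limits Kl and Slc4a5, each under 40 counts in both libraries.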
